A study of Mus musculus with 6 samples.

Results

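The insulin-like growth factor (IGF) system was described in ventricles of caAkt mice, which carry a transgene for an activated Akt kinase expressed in the heart, against ventricles of wild-type mice. The 9 genes were taken from a list of names: the ligands Igf1 and Igf2, the receptor Igf2r and the binding proteins Igfbp2 to Igfbp7. All 9 were found, out of 18193 genes with a probe set of their own, and they were covered by 23 of 34945 probe sets that carry a sole gene symbol. Each gene is represented by its brightest probe set, the one with the highest mean over all arrays, and the other probe sets are given beside it.

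There were 3 caAkt and 3 wild-type arrays, all from ventricular tissue of mice aged 8 weeks, and the study asked which expression changes accompany the heart failure of the transgenic mice. The labels state neither the promoter of the transgene nor the sex, the mouse strain, a batch or whether an array holds RNA of 1 animal, so the spread behind each p-value is that among these arrays and could be partly technical. Values are log2 signals made by RMA, a method that corrects background, equalises the arrays and summarises the short probes of each probe set. A difference of 1 on this scale is a 2-fold difference.

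IGF1 and IGF2 are secreted growth factors that act through the IGF1 receptor, whose signal passes through insulin receptor substrates to phosphoinositide 3-kinase and Akt. IGF2R, the mannose 6-phosphate receptor, takes up IGF2 for breakdown in lysosomes and does not signal through Akt. The IGFBP proteins hold IGFs outside the cell and, depending on the protein and on the proteases that cleave it, lower or prolong IGF action. In the heart, IGF1 is known as a growth and survival factor for cardiomyocytes and is made largely by non-myocytes, while Igf2 is chiefly a gene of fetal growth and is imprinted.

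The IGF genes differed from each other in direction. Igf1 and the binding proteins Igfbp4, Igfbp5, Igfbp6 and Igfbp7 rose in caAkt hearts, Igf2 fell, and Igf2r, Igfbp2 and Igfbp3 did not pass the test. Thus 5 of 9 genes rose, against 16.1% of all genes, and 1 of 9 fell, against 12.4% of all genes (limma, adjusted p under 0.05). In either direction 28.5% of all genes passed. The median log2 fold change, caAkt minus wild-type, was 0.83 over the 9 genes and -0.04 over all genes. A rise of at least 2-fold was reached by 4 of 9 genes, Igf1, Igfbp5, Igfbp6 and Igfbp7, against 2.48% of all genes. For 5 of 9 genes every caAkt value lay above every wild-type value, against 21.4% of all genes, and for Igf2 every caAkt value lay below, against 21.1% of all genes. Of the 23 probe sets, 15 rose and 1 fell, against 13.8% and 9.65% of all probe sets. These probe sets count the same genes again and are not independent: 6 of those that rose belong to Igfbp4 and 4 to Igf1.

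**Figure D1:**
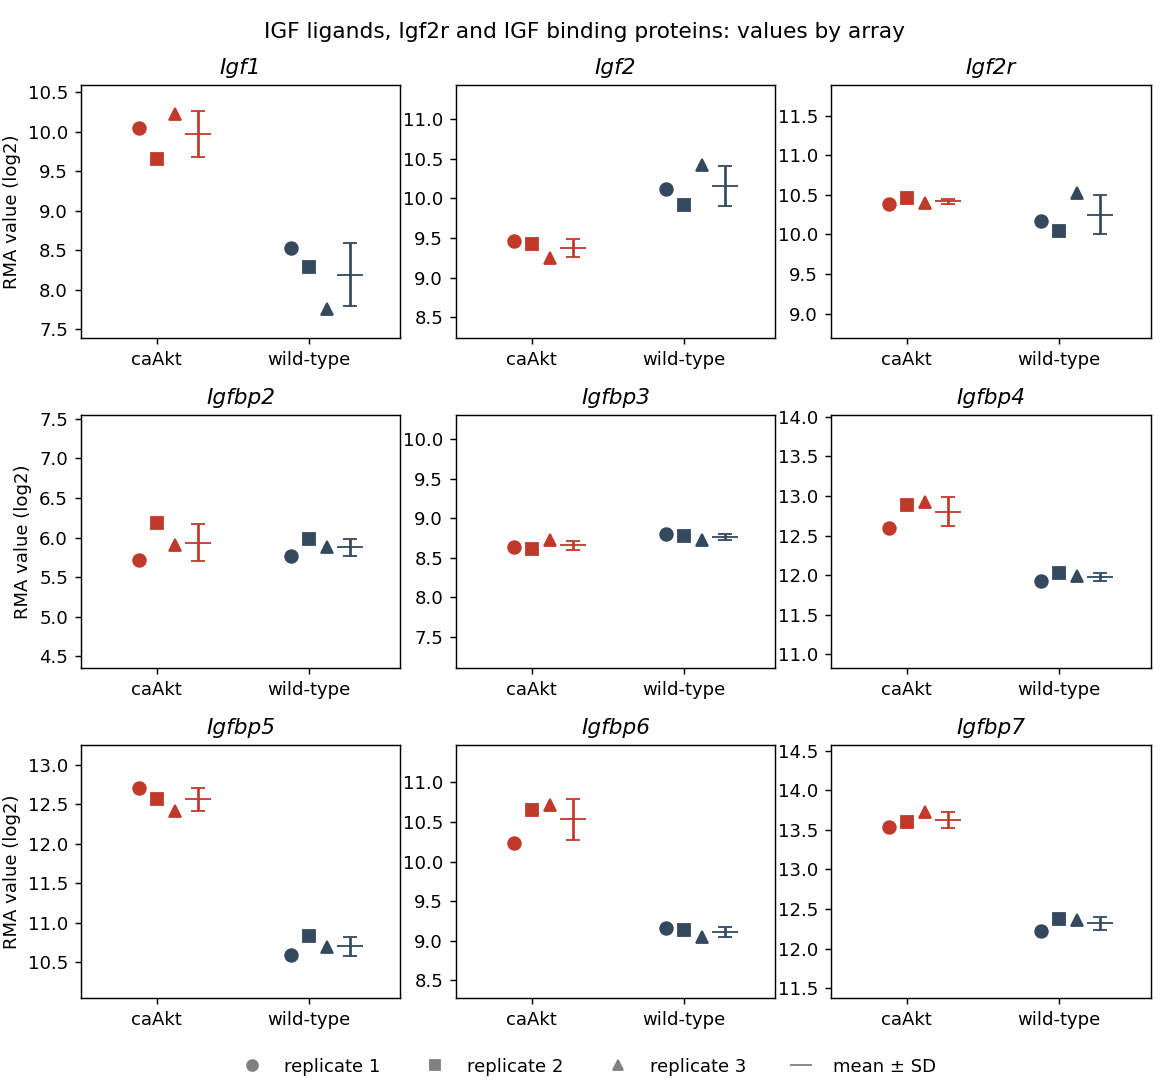
RMA values (log2, vertical axis) of the brightest probe set of each of the 9 genes on the 3 caAkt and 3 wild-type arrays, with the mean and SD of each group, in panels that each span 3.2 log2 units. The caAkt points lie above all wild-type points for Igf1, Igfbp4, Igfbp5, Igfbp6 and Igfbp7, below them for Igf2, and among them for Igf2r and Igfbp2, while for Igfbp3 the highest caAkt point meets the lowest wild-type point.

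The promoters of the 5 genes that rose are shown to ask what sequence they share, together with the first of 2 start sites of Igfbp2, which lies beside Igfbp5 on chromosome 1 and did not pass the test. The sequences are those of RefSeq (GRCm38.p6), which gave 13 start sites for the 9 genes, and each runs 5′ to 3′ from 250 bases before to 50 bases after the start. Capitals mark matches, on either strand, to the TATA box (TATAAA), the CCAAT box (CCAAT), the GC box (GGGCGG), a FoxO-type site (GTAAACA), the core of an insulin response element (CAAAACA), an AP-1 site (TGANTCA) and an AP-2 site (GCCNNNGGC). No matches overlapped in the sequences shown.
Igf1, chr10:87860861-87861160, plus strand: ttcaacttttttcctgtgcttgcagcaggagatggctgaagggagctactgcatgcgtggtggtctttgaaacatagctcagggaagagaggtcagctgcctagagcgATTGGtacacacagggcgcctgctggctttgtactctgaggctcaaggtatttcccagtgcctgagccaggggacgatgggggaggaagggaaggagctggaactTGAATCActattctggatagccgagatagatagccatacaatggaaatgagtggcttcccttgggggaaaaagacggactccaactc
Igfbp4, chr11:99040994-99041293, plus strand: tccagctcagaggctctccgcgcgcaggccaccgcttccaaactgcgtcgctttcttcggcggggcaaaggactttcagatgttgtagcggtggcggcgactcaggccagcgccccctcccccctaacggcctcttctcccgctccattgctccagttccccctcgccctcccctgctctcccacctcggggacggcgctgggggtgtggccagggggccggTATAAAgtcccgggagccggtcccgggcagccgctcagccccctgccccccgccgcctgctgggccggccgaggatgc
Igfbp5, chr1:72874816-72875115, minus strand: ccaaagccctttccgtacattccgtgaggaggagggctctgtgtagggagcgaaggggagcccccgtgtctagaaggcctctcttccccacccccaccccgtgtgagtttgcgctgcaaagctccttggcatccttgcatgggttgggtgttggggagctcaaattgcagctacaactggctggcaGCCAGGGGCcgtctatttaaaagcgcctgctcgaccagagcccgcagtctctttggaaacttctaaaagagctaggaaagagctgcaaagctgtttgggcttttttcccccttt
Igfbp6, chr15:102143936-102144235, plus strand: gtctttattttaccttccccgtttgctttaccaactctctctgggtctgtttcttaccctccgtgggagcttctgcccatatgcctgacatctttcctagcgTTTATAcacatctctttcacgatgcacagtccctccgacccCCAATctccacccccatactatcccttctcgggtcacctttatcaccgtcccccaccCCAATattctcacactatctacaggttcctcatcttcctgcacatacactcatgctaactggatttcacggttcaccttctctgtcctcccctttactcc
Igfbp7, chr5:77407996-77408295, minus strand: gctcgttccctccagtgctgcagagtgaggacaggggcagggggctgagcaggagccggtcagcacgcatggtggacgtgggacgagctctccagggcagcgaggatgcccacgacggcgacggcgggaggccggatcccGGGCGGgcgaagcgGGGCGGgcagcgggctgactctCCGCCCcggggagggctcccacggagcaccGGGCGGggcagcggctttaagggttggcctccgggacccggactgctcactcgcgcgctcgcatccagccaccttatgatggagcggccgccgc
Igfbp2, chr1:72824230-72824529, plus strand: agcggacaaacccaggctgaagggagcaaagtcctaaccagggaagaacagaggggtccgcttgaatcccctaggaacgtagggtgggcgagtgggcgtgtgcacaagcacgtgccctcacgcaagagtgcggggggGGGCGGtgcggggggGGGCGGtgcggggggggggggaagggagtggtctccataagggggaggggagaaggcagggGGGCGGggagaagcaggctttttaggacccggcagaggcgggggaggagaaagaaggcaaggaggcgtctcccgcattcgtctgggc

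None of the 7 motifs was found in all 5 of these promoters. The Igfbp4 promoter holds a TATA box 28 bases before the start, a motif present in 13.6% of 32851 promoters. The Igfbp6 promoter holds a TATA match further up and 2 CCAAT boxes (37.4% of promoters hold at least 1), and that of Igf1 holds a CCAAT match and an AP-1 site (7.81% of promoters). The Igfbp7 promoter has 4 GC boxes and the first Igfbp2 window has 3, a motif present in 35.7% of promoters, while Igfbp5 has none and has an AP-2 match (16.6% of promoters). The FoxO-type site (3.65% of promoters) and the insulin response core (6.28% of promoters) are absent from these 6 windows. Base composition differed as well: G and C made up 73.3% of the Igfbp7 window and 71.3% of that of Igfbp4, but 56.3% for Igfbp5, 52.3% for Igf1 and 49.7% for Igfbp6, with a median of 52.7% over all promoters. The second Igfbp2 window, not shown, has no GC box and holds an AP-1 match. These matches describe the letters of the windows and say nothing of binding.

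Of the ligands, Igf1 stood at 10.04, 9.65 and 10.22 in the caAkt hearts of replicates 1, 2 and 3, and at 8.53, 8.29 and 7.76 in the wild-type hearts. The groups were far apart, and wild-type replicate 3 was the lowest of all arrays, 0.44 under its group mean. Igf1 averaged 9.97 ± 0.295 in caAkt and 8.19 ± 0.396 in wild-type hearts (SD, n = 3 each). The log2 fold change was 1.78 ± 0.20 (SE, adjusted p = 0.000189, limma), which is 3.43-fold, with a 95% interval of 1.33 to 2.23, and this put Igf1 at rank 101 of 18193 genes by size of rise. Leaving out wild-type replicate 3 gave 1.56, within that interval. The remaining 3 probe sets of Igf1 also rose, by 1.64, 1.07 and 1.36 on the log2 scale, with adjusted p of 0.000112, 0.00044 and 4.25e-05 among all probe sets. On each of these 4 probe sets the groups did not overlap.

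Igf2 moved the other way. Its values were 9.46, 9.42 and 9.25 in caAkt hearts and 10.12, 9.92 and 10.42 in wild-type hearts. The caAkt arrays lay close together and below each wild-type array, of which replicate 3 was the highest. Igf2 averaged 9.38 ± 0.11 in caAkt and 10.15 ± 0.25 in wild-type hearts (SD, n = 3 each). The difference was -0.77 ± 0.12 on the log2 scale (SE, limma adjusted p = 0.00141), or 1.71-fold lower. Without wild-type replicate 3 the value was -0.64, still called. A second probe set of Igf2 had values of 5.73, 5.69 and 5.72 in caAkt and 5.93, 5.71 and 5.82 in wild-type hearts and gave -0.11 (adjusted p = 0.346), so that the fall rests on the brighter probe set. The position of the probes along Igf2 was not analysed here. RefSeq lists 4 start sites for this gene, and none of their windows is shown.

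The receptor Igf2r was at 10.39, 10.46 and 10.40 in caAkt hearts and at 10.17, 10.05 and 10.53 in wild-type hearts. The caAkt values lay inside the wild-type range, and wild-type replicate 3 was again the highest array. The log2 fold change was 0.17 ± 0.12 (SE, adjusted p = 0.309) with a 95% interval of -0.09 to 0.43. Without wild-type replicate 3 it was 0.31 and passed the test (adjusted p = 0.0187), so that this array decides the call. A second probe set gave 0.02 (adjusted p = 0.864). A further probe set that the annotation assigns to Igf2r together with Airn, the RNA that silences the paternal Igf2r copy, was left out by the rule.

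Among the binding proteins, Igfbp5, a matrix-bound IGFBP with a basic stretch that binds heparin, had a fold change close to that of Igf1. Its values were 12.71, 12.56 and 12.41 in caAkt hearts and 10.59, 10.83 and 10.70 in wild-type hearts. The groups were separated by many times the spread within either. Means were 12.56 ± 0.15 in caAkt and 10.71 ± 0.12 in wild-type hearts (SD, n = 3 each). Igfbp5 thus rose by 1.85 ± 0.10 on the log2 scale (SE, limma adjusted p = 2.73e-06), or 3.60-fold. A dimmer probe set also rose, with 9.0, 9.26 and 9.30 in caAkt and 8.31, 8.38 and 8.73 in wild-type hearts. Its log2 fold change of 0.71 ± 0.13 (adjusted p = 0.0036) was well below that of the brighter probe set, and the 95% intervals of the 2 did not overlap.

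Igfbp6, which prefers IGF2 over IGF1, had values of 10.24, 10.65 and 10.71 in caAkt hearts and 9.16, 9.14 and 9.04 in wild-type hearts. The caAkt replicate 1 was the lowest of its group and still more than 1 unit above all wild-type arrays. The log2 fold change was 1.42 ± 0.12 (SE, adjusted p = 3.42e-05), or 2.68-fold, on its only probe set.

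Igfbp7, a relative of the classical IGFBPs that binds IGFs weakly and is abundant in vessel walls, had values of 13.54, 13.60 and 13.73 in caAkt hearts and 12.22, 12.37 and 12.36 in wild-type hearts. Each group was tight, with SDs of 0.095 in caAkt and 0.082 in wild-type hearts. The log2 fold change was 1.30 ± 0.08 (SE, adjusted p = 5.94e-06), or 2.47-fold. The 2 dimmer probe sets disagreed. One rose by 1.14 on the log2 scale (adjusted p = 1.85e-05), with 8.52, 8.48 and 8.44 in caAkt and 7.44, 7.27 and 7.30 in wild-type hearts. The other had 8.55, 8.37 and 8.27 in caAkt and 8.28, 8.37 and 8.37 in wild-type hearts and did not pass the test (0.06, adjusted p = 0.686).

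Igfbp4, an inhibitor of IGF action until the protease PAPP-A cleaves it, had values of 12.60, 12.88 and 12.93 in caAkt hearts and 11.92, 12.02 and 11.99 in wild-type hearts. The caAkt replicate 1 was the lowest of its group, as for Igfbp6, and the groups did not overlap. The log2 fold change was 0.83 ± 0.09 (SE, adjusted p = 0.000198), or 1.78-fold. All 6 probe sets of Igfbp4 rose, by 0.56 to 0.89 on the log2 scale.

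Igfbp2 and Igfbp3 did not pass the test. Igfbp2, whose promoter with its GC boxes is shown above, had 5.72, 6.18 and 5.91 in caAkt hearts and 5.77, 5.98 and 5.88 in wild-type hearts. This signal, from its only probe set, was low. Its group means of 5.94 and 5.87 lay under the 25th percentile of all gene means (5.99), so a change could be missed. The caAkt values spanned the whole wild-type range, and the difference was 0.07 ± 0.12 on the log2 scale (SE, adjusted p = 0.711) and a 95% interval of -0.20 to 0.33. Igfbp3, the main carrier of IGFs in blood, had 8.64, 8.61 and 8.72 in caAkt hearts and 8.80, 8.77 and 8.72 in wild-type hearts. The groups met at 8.72, the log2 fold change was -0.10 ± 0.07 (SE, adjusted p = 0.281) and the 95% interval was -0.26 to 0.05. A second probe set of Igfbp3 gave -0.08 (adjusted p = 0.534).

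**Figure D2:**
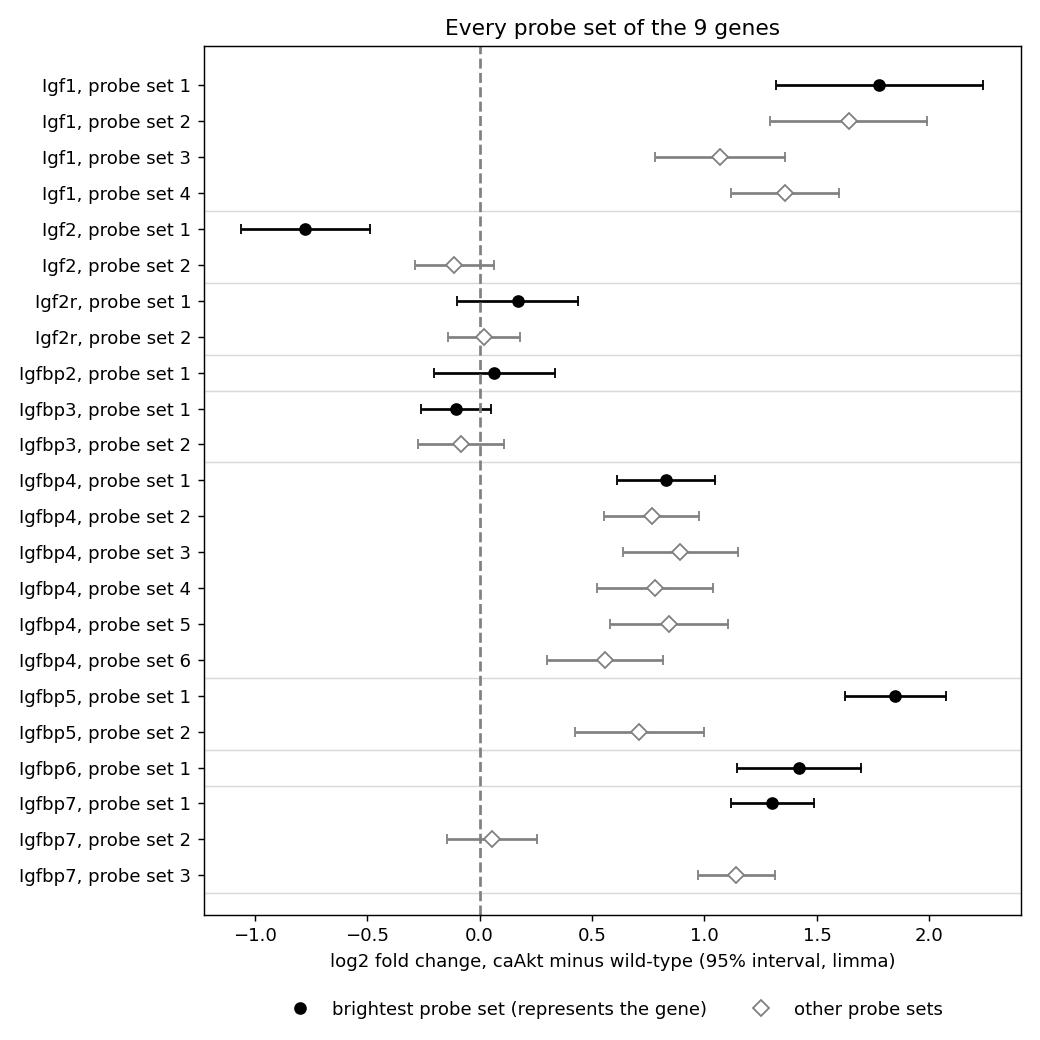
Log2 fold change (horizontal axis, caAkt minus wild-type, 95% interval from limma on all probe sets) of each of the 23 probe sets of the 9 genes, numbered from bright to dim within a gene, with the brightest filled. All probe sets of Igf1, Igfbp4, Igfbp5 and Igfbp6 lie to the right of 0, whereas the second probe set of Igfbp7 (0.06) and of Igf2 (-0.11) lie near 0.

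Set in order of log2 fold change, the genes ran Igfbp5, Igf1, Igfbp6, Igfbp7, Igfbp4, Igf2r, Igfbp2, Igfbp3 and Igf2. The 95% intervals of neighbours in this order overlapped along the first 4. Differences between genes were not tested, and overlap of intervals is no such test, so the order is that of the estimates only. The intervals of Igfbp7 and Igfbp4 did not overlap, nor did those of Igfbp4 and Igf2r or of Igfbp3 and Igf2. Igf2r, Igfbp2 and Igfbp3 overlapped with their neighbours in that middle group. Within the wild-type group, replicate 3 stood 0.44 below the mean for Igf1, and 0.27 and 0.28 above it for Igf2 and Igf2r, while the binding proteins deviated by at most 0.13 on any wild-type array. Within the caAkt group, Igf1 deviated most, 0.32 below the mean in replicate 2 and 0.25 above it in replicate 3, and Igfbp2 stood 0.24 above it in replicate 2 and 0.22 below it in replicate 1. The caAkt replicate 1 stood 0.20 and 0.29 below the mean for Igfbp4 and Igfbp6, and 0.15 above it for Igfbp5.

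Igfbp2 and Igfbp5 are adjacent protein-coding genes in the RefSeq table (GRCm38.p6), and so are Igfbp1 and Igfbp3. Igfbp5 rose while Igfbp2, of low signal, did not pass the test, with 95% intervals of 1.63 to 2.07 for Igfbp5 and -0.20 to 0.33 for Igfbp2. Igfbp1, an IGFBP made mainly in liver, had 4.17, 4.19 and 4.24 in caAkt hearts and 4.20, 4.52 and 4.27 in wild-type hearts. All of these lay under the highest value of 3 Y-linked genes (4.57), which serves here as a mark of a dim signal, and Igfbp1 was not called (-0.13, adjusted p = 0.322). Of the other neighbours, Tns3 beside Igfbp3 (1.0, adjusted p = 1.23e-05), Top2a beside Igfbp4 (0.73, adjusted p = 0.000241) and Spryd3 beside Igfbp6 (0.44, adjusted p = 0.0124) rose. Both neighbours of Igfbp7, Polr2b (-0.29, adjusted p = 0.0282) and Adgrl3 (-0.28, adjusted p = 0.0244), fell. Next to Igf2 lie Mrpl23, a mitochondrial ribosomal protein gene, which fell by 0.66 on the log2 scale (adjusted p = 9.48e-05), and the insulin gene Ins2 (-0.03, adjusted p = 0.825).

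Fibroblast and macrophage markers were mostly higher in caAkt hearts, endothelial and cardiomyocyte markers were lower where called, and the shares of all genes called were 16.1% higher and 12.4% lower. Of 12 fibroblast markers, 10 rose and 0 fell, with a median log2 fold change of 0.82, and their summed signal was 16.38 to 16.53 in caAkt and 14.98 to 15.27 in wild-type hearts (log2 of the sum). Tcf21 (0.07, limma adjusted p = 0.572) and Thy1 (0.14, adjusted p = 0.228) were not called, and Pdgfra rose by 0.49. The largest rises were those of the matrix genes Postn (2.31), Col1a1 (2.31), Col1a2 (2.02) and Col3a1 (1.48). Bright matrix genes such as Col3a1 and Dcn weigh most in the sum. Of 12 macrophage markers, 11 rose and 1, the scavenger receptor gene Cd163, fell, with a median of 1.06 and a summed signal of 14.61 to 14.88 in caAkt and 13.15 to 13.41 in wild-type hearts. Of 10 endothelial markers 0 rose and 3 fell (median -0.19; 13.45 to 13.58 in caAkt, 13.68 to 13.77 in wild-type), and of 10 cardiomyocyte markers 0 rose and 5 fell (median -0.26; 18.03 to 18.05 in caAkt, 18.12 to 18.25 in wild-type). Several cardiomyocyte markers lay near the highest values of the arrays (15.45), where a rise could be missed. Actc1 stood at 15.45 on each caAkt array. For each of these 4 sums the exact permutation p was 0.1, the smallest that 3 against 3 arrays allow (two-sided). Of 10 pericyte and smooth muscle markers 3 rose and 2 fell (median 0.14), with sums of 15.08 to 15.35 in caAkt and 15.11 to 15.27 in wild-type hearts. Des (0.65), Cspg4 (0.85) and Tagln (0.46) rose, and Abcc9 (-1.69) and Kcnj8 (-0.70) fell. Des was the brightest of the list and weighs most in the sum, which therefore joins opposite changes. No marker of these 5 lists was at the dim Y-linked level. Sums of 5 lymphocyte markers (8.79 to 8.97 in caAkt, 8.93 to 9.03 in wild-type) and 7 skeletal muscle markers (13.62 to 14.46 in caAkt, 12.83 to 14.22 in wild-type) overlapped between the groups, and the sum of 4 adipocyte markers was lower (7.80 to 7.96 in caAkt, 8.30 to 8.74 in wild-type). The skeletal muscle sum came almost wholly from Acta1 (13.58, 14.26 and 14.43 in caAkt, 12.77, 14.18 and 12.73 in wild-type), which was not called. Of the 7 skeletal muscle markers 0 rose and 1, Mylpf, fell (-0.46, limma adjusted p = 0.00177). Of the 4 adipocyte markers 0 rose and 3 fell, among them Cidec at the dim Y-linked level. Of the 5 lymphocyte markers 0 rose and 0 fell. In whole tissue, more cells of a type and more RNA per cell cannot be told apart, and the part of these cell types in the changes of the IGF genes was not tested.

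**Figure D3:**
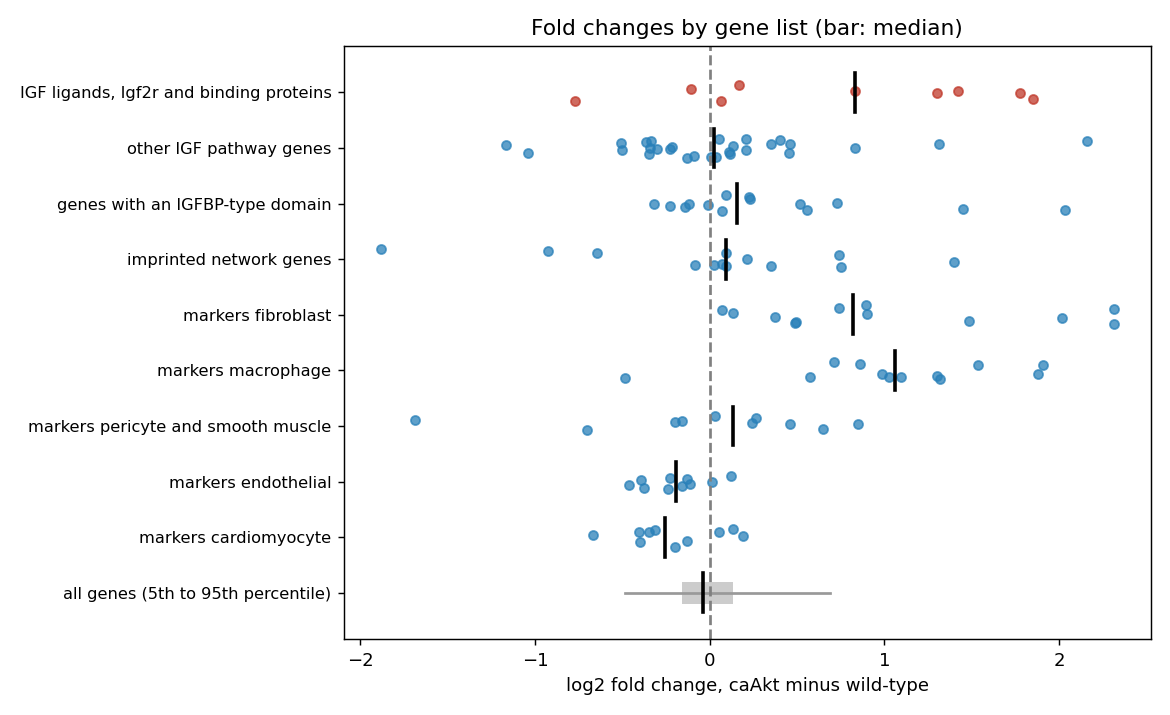
Log2 fold change (horizontal axis, caAkt minus wild-type) of each gene in the IGF set and in the lists set beside it, with the median of a list as a bar and, for all genes, the 5th to 95th percentile (-0.48 to 0.69) as a line and the middle 50% as a box. The medians were 0.83 for the 9 IGF genes, 0.82 for fibroblast markers and 1.06 for macrophage markers, against -0.04 for all genes.

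For the 4 genes with a rise of at least 2-fold, the genes of most similar pattern were sought as those with the smallest root mean square difference in log2 deviation from the wild-type mean over the 6 arrays. For Igf1 these were Cdh11 (0.12), a cadherin of mesenchymal cells, Mllt11 (0.19) and Prss23 (0.19). For Igfbp5 they were Cd68 (0.059), a lysosomal protein of macrophages, Tspo (0.074) of the outer mitochondrial membrane and B4galnt1 (0.090). For Igfbp6 they were the collagen genes Col6a3 (0.097) and Col14a1 (0.10) and the matrix gene Fbln2 (0.12). For Igfbp7 they were Pmepa1 (0.047), Fbln2 (0.072) and Atp8a2 (0.073). These differences describe 6 arrays of 2 groups and mainly reflect a like fold change.

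The rest of the pathway moved in both directions. Of 28 measured genes of IGF supply, reception and release, 7 rose and 8 fell, against 16.1% and 12.4% of all genes, with a median log2 fold change of 0.02. Of 7 receptors and adaptors, 4 fell and 1 rose, against 12.4% and 16.1% of all genes. The receptor gene Igf1r had 9.57, 9.80 and 9.71 in caAkt and 9.37, 9.58 and 9.50 in wild-type hearts. These values overlap, and the log2 fold change of 0.21 ± 0.09 was not called (SE, adjusted p = 0.105), although 1 of its 4 dimmer probe sets rose (0.49, adjusted p = 0.0012). The adaptor Irs1 had 10.37, 10.27 and 10.39 in caAkt hearts, against 11.51, 11.52 and 11.50 in wild-type hearts, and fell by 1.17 on the log2 scale (adjusted p = 4.58e-06), or 2.25-fold. Insr, the insulin receptor gene, fell by 1.04 (adjusted p = 3.3e-05) when measured by its brightest probe set, but the dimmer ones stood at -0.08 and -0.06, neither of them called. Insrr (-0.30) and the adaptor Grb14 (-0.22) fell and Grb10 (0.35), which restrains IGF1 receptor signalling, rose, and the call of Grb14 was lost without any of the 6 arrays (adjusted p 0.0725 to 0.132).

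Growth hormone drives Igf1 in many tissues through its receptor and STAT5. The receptor gene Ghr fell by 0.34 on the log2 scale (adjusted p = 0.0308) and its other probe sets by 0.46 and 0.51, but the call at the brightest was lost without any of 4 of the arrays (adjusted p 0.0742 to 0.108 without caAkt replicate 2 or 3 or wild-type replicate 1 or 2). Stat5b fell by 0.51 (adjusted p = 0.000472) and Stat5a by 0.36 (adjusted p = 0.0113), with dimmer probe sets at -0.37 and -0.23 that were not called. The feedback inhibitors Socs3 and Socs2 rose. Socs3 had 9.08, 9.75 and 9.04 in caAkt and 7.86, 8.03 and 8.03 in wild-type hearts. It rose by 1.31 ± 0.17 on the log2 scale (SE, adjusted p = 0.000414), with all 3 of its probe sets higher. Socs2 rose by 0.46 (adjusted p = 0.00396), with 1 of its 6 probe sets called. A dimmer probe set of Jak2 rose (0.29, adjusted p = 0.0161), but at their brightest Jak2 (0.13) and Igfals (-0.34, adjusted p = 0.0665), the subunit that joins IGF and IGFBP3 in blood, were not called.

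Of 9 proteases that cleave IGFBPs or regulators of them, 4 rose and 1 fell, against 16.1% and 12.4% of all genes. The matrix metalloprotease gene Mmp14 had 10.51, 10.62 and 10.55 in caAkt hearts and 8.41, 8.50 and 8.30 in wild-type hearts. It rose by 2.16 ± 0.08 on the log2 scale (SE, adjusted p = 5.26e-07), or 4.46-fold, and all 3 of its probe sets rose. Plat, tissue plasminogen activator, rose by 0.83 (adjusted p = 0.000554), with a dimmer probe set at -0.11 and not called, and Adam12 by 0.46 (adjusted p = 0.00727), with a dimmer probe set at 0.28 and not called. Pappa, which encodes the Igfbp4 protease, had 0.01 ± 0.09 (SE, adjusted p = 0.961) and Pappa2 had 0.11 (adjusted p = 0.327), and neither was called. The stanniocalcin genes, whose products inhibit PAPP-A, went opposite ways: Stc1 rose by 0.40 (adjusted p = 0.0198) and Stc2 fell by 0.50 (adjusted p = 0.00154). The rise of Stc1 was not called without caAkt replicate 3 (adjusted p = 0.0553) or wild-type replicate 1 (adjusted p = 0.0696). Its other probe set stood at 0.06 (adjusted p = 0.763), and the mean of its probe sets was not called (0.23, adjusted p = 0.133). All 3 probe sets of Stc2 fell. Htra1 (-0.23), Plau (0.04), Furin (0.12), M6pr (0.21), Igf2bp1 (-0.09) and Igf2bp3 (0.05) were not called, although a dimmer probe set of M6pr rose (0.29, adjusted p = 0.0309).

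**Figure D4:**
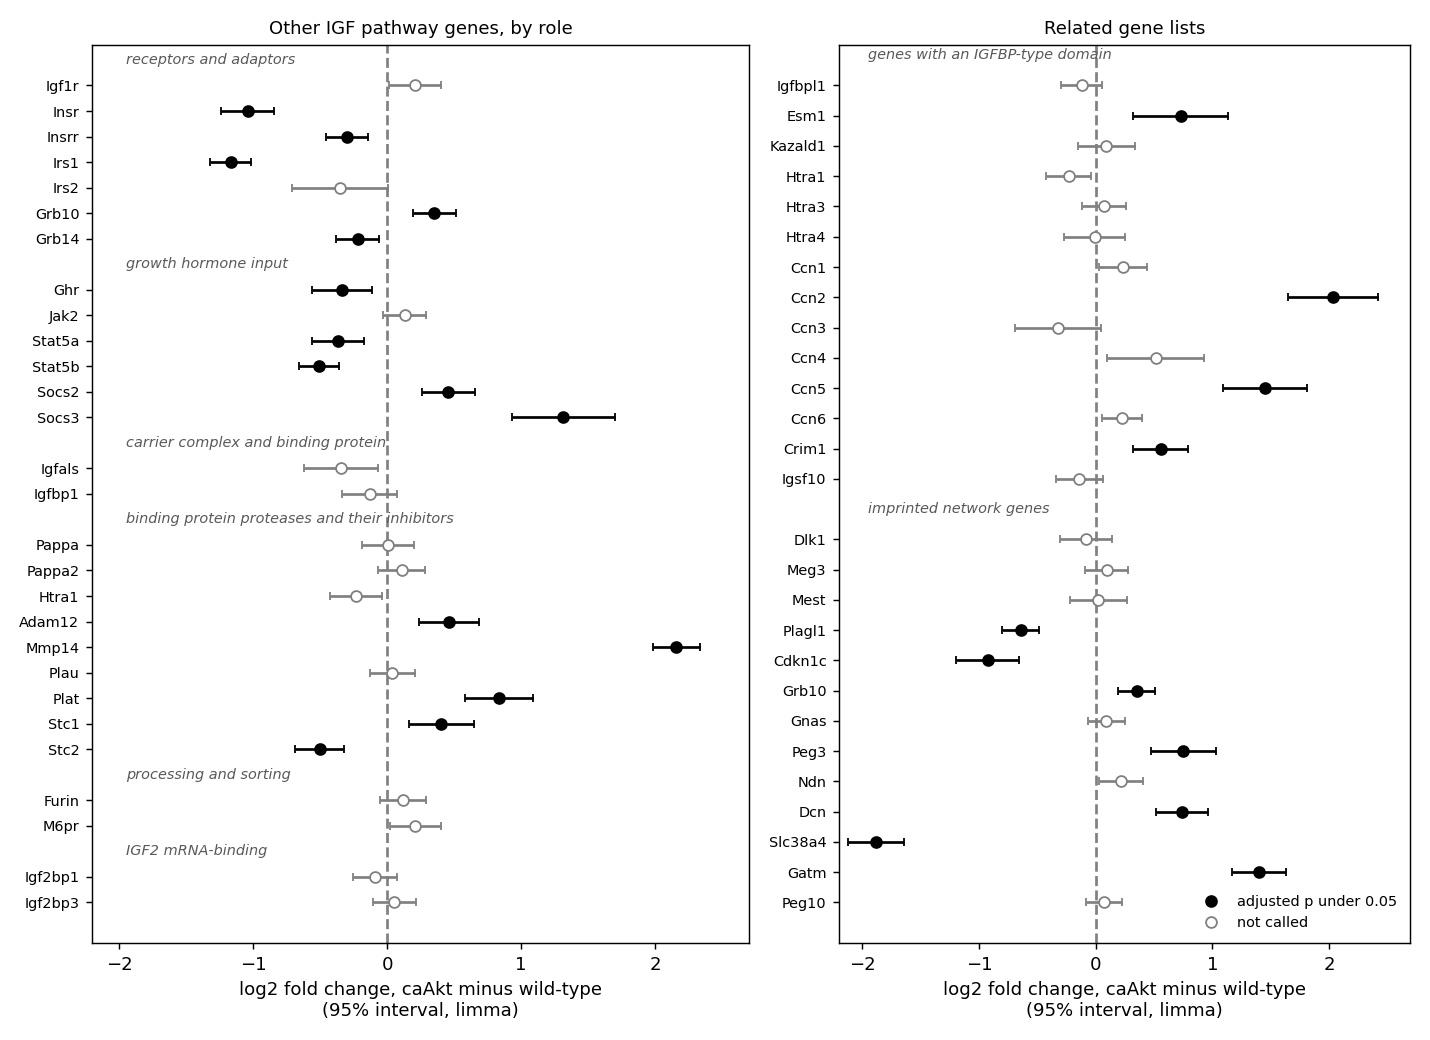
Log2 fold change (horizontal axis, caAkt minus wild-type, 95% interval from limma) of 28 other IGF pathway genes by role (left) and of 14 genes with an IGFBP-type domain and 13 genes of the imprinted network (right), with called genes filled. Mmp14 (2.16), Ccn2 (2.03) and Ccn5 (1.45) lie far to the right and Irs1 (-1.17), Insr (-1.04) and Slc38a4 (-1.88) far to the left, while Igf1r (0.21) and Pappa (0.01) are drawn unfilled.

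Genes whose proteins carry an IGFBP-type domain outside the IGFBP family were examined next. Of 14 such genes, 4 rose and 0 fell, against 16.1% and 12.4% of all genes, with a median log2 fold change of 0.16. Ccn2, connective tissue growth factor, had 13.12, 13.58 and 13.84 in caAkt hearts and 11.31, 11.70 and 11.43 in wild-type hearts. The groups were clearly separate, and Ccn2 rose by 2.03 ± 0.17 on the log2 scale (SE, adjusted p = 3.63e-05), or 4.10-fold. Ccn5 rose by 1.45 (adjusted p = 0.000163), Crim1, which binds bone morphogenetic proteins, by 0.56 (adjusted p = 0.00355) and Esm1, an endothelial proteoglycan gene, by 0.73 (adjusted p = 0.0143). The call of Esm1 was lost without caAkt replicate 1 or 3 or wild-type replicate 3 (adjusted p 0.0522 to 0.0657). Esm1 was also dim, with group means of 5.82 in caAkt and 5.09 in wild-type hearts. Both lay under the 25th percentile of all gene means (5.99), and with the dim filter 3 genes of this list were called. Ccn1 was not called at its brightest probe set (0.23, adjusted p = 0.0923), while 2 of its dimmer probe sets fell, 1 of them to -0.72, so that its direction depends on the probe set. Ccn3 (-0.32), Ccn4 (0.52), Ccn6 (0.23), Htra3 (0.07), Htra4 (-0.01), Kazald1 (0.09), Igfbpl1 (-0.12) and Igsf10 (-0.14) were not called. A dimmer probe set of Ccn4 rose (1.02, adjusted p = 0.0149), as did the mean of its probe sets (0.77, adjusted p = 0.0238), and a dimmer one of Ccn3 fell (-0.30, adjusted p = 0.0477). The second probe set of Crim1 was not called (0.17, adjusted p = 0.498).

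Igf2 and Igf2r are imprinted genes, read from the paternal and the maternal copy, and Igf2 belongs to a group of imprinted growth genes that are expressed together in young tissues. Of 13 measured genes of that network, 4 rose and 3 fell, against 16.1% and 12.4% of all genes, with a median log2 fold change of 0.09. Slc38a4, an amino acid transporter gene, fell most, with 7.33, 6.97 and 7.02 in caAkt and 8.99, 9.10 and 8.88 in wild-type hearts. The difference was -1.88 ± 0.11 on the log2 scale (SE, adjusted p = 4.28e-06), or 3.69-fold lower. The cell cycle inhibitor Cdkn1c fell by 0.93 (adjusted p = 0.000445). The factor Plagl1, which activates Igf2, fell by 0.64 (adjusted p = 0.000155), with further probe sets at -0.31 and -0.08, of which the last was not called. Gatm (1.40), of creatine synthesis, Peg3 (0.75), Dcn (0.74) and Grb10 (0.35) rose, and Dcn is also among the fibroblast markers. Not all their probe sets were called: 1 of 2 for Dcn, 1 of 3 for Grb10 and 3 of 5 for Peg3. Dlk1 (-0.08), Meg3 (0.09), Mest (0.02), Gnas (0.09), Ndn (0.22) and Peg10 (0.07) were not called at their brightest, with 1 of 11 probe sets of Meg3 and 2 of 8 of Ndn higher, and H19 has no probe set of its own in the annotation used.

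The labels were checked on Akt1. Akt1 stood at 15.16, 15.10 and 15.08 in caAkt and 9.79, 9.79 and 10.18 in wild-type hearts on its brightest probe set, near the highest values of the arrays (15.45). The other 3 probe sets of Akt1 did not rise: 1 fell by 0.29 (adjusted p = 0.0248), and those at -0.21 and 0.08 were not called, so that the label check rests on the brightest. Array medians were 6.77 to 6.80, and correlations over all probe sets ran between 0.995 and 0.997 for arrays of one genotype and between 0.983 and 0.985 across genotypes. On the actin probe sets that track RNA breakdown, the 3′ end exceeded the 5′ end by 0.53 to 0.69 in caAkt and 0.60 to 0.71 in wild-type hearts (exact permutation p = 0.5, two-sided).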

How the data were processed

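Per the labels' protocols, total RNA of ventricular tissue was purified and labelled with biotin for Affymetrix arrays. The deposited values are on a log2 scale, and RMA and affy are the tools in the submitters' processing notes (versions not given in the sources used here). Because RMA brings all arrays to 1 distribution, a shift common to the bulk of the genes is hidden. Precision is limited by the small number of arrays, 3 in each group.

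Of 45101 probe sets, 64 were controls, 34945 carried 1 gene symbol in the platform annotation, 932 several and 9160 none. Symbols were checked through gene identifiers in RefSeq (GRCm38.p6), found for 34741 probe sets, and 0 changed. The brightest probe set stood for each of 18193 genes, with no filter on dim signals. The comparison used limma 3.58.1 under R 4.3.3 (lmFit and eBayes, two-sided), p-values were adjusted by Benjamini-Hochberg across all genes or, for further probe sets, across all probe sets, and an adjusted p under 0.05 was a call. The fit was tested on simulated data with 200 changed genes and noise independent between genes, whereas 5183 genes were called in the arrays. It recovered 42 of 67 changes of 0.5, 66 of 67 of 1 and 66 of 66 of 2 on the log2 scale, with 4 false calls. Since the setting differs, it does not measure how many of the calls here are false. Lists are described by counts and medians. The rule for naming takes the 9 genes with every probe set, called genes of each list (at most 12), and Igf1r, Insr, Ghr, Igfbp1, Pappa, H19 and Akt1; list members that were not called, marker genes and neighbours were added after their values were seen. The genes and lists were chosen with earlier results of these data known. Alternatives were other settings of eBayes, probe set choice, dim filter, scaling, array weights, the omission of each array in turn, the replicate number as a block and 0.01 as threshold.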

Additional observations from a re-analysis of the deposited data

How the results depend on the processing

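The direction of Igf1, Igf2, Igfbp4, Igfbp5, Igfbp6 and Igfbp7 and their side of the threshold held under every alternative that could be run for them, including both scaling alternatives. Without single arrays their log2 fold changes were 1.56 to 1.95, -0.89 to -0.64, 0.77 to 0.93, 1.77 to 1.92, 1.33 to 1.57 and 1.25 to 1.34. When the probe sets of a gene were averaged, Igf2 was -0.44, Igfbp5 1.28 and Igfbp7 0.83, all still called. Igf1 exceeded Igfbp5 when probe sets were averaged (1.46 against 1.28) and without caAkt replicate 2 or wild-type replicate 1. Igf2r ranged from 0.0707 to 0.311 without single arrays and passed only without wild-type replicate 3, so that 5 to 6 of the 9 genes were called higher. Igfbp2, never called, ranged from -0.06 to 0.17. The dim filter removed it and gave no value, since its mean lay under the 25th percentile of gene means (5.99). With only plain probe sets, 3 genes were called higher, since Igfbp2, Igfbp4 and Igfbp5 have none and gave no value. Over the whole array, 5183 genes were called, 3984 to 4827 without single arrays, 3255 at a threshold of 0.01, and 8178 probe sets with all probe sets as rows. Of the other pathway genes, 4 in place of 8 were called lower with only plain probe sets, and again 4 at the threshold of 0.01. With plain probe sets, Grb14 lost its call (adjusted p = 0.0505), whereas Ghr, Stat5a and Stat5b have none and gave no value. Array weights called 7 of the genes with an IGFBP-type domain, against 4, and 3 to 6 were called without single arrays. Replicate numbers are shared by both groups, and same-numbered arrays deviated together for replicate 1 only (correlations of 0.27, 0.03 and -0.12). With 3 arrays per group, these correlations cannot show whether same-numbered arrays share more than a number. With the replicate block, 5141 genes were called, and 5 IGF genes were higher and 1 lower. Since each number has 1 array of each group, the block leaves every fold change as it was by construction (Igf1 1.78) and alters only its error. The replicate 1 arrays correlated best with each other, which did not hold for replicates 2 and 3. The block also called Irs2 (-0.35, adjusted p = 0.0353, against 0.136 without it) and Igfals (-0.34, adjusted p = 0.0306, against 0.0665), and not Grb14 (adjusted p = 0.065).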
